A study of Arabidopsis thaliana with 8 samples.

Results

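The annotated pseudogenes of Arabidopsis thaliana chromosome 1 were followed on Affymetrix ATH1 arrays in inflorescences of wild type, of plants without DDM1, of plants without RDR6 and of plants without both. A probe set was taken as a member where the platform annotation gave it a single gene, the reference gene table listed that gene as pseudogene or transcribed pseudogene, and the locus began with AT1G. The rule left out AT1G33130. The set held 192 of the 22746 probe sets tested, each for a different locus. Of the 192, 148 were plain _at probe sets, called own probe sets here, and 44 were of the types _s_at (34) or _x_at (10), whose probes also match related sequences. Signal from such shared probe sets cannot be assigned to 1 locus, and rises seen by several of them may not be separate. The biotype was pseudogene for 176 members and transcribed pseudogene for 16.

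Plants were wild type of the accession Col-0, the mutants ddm1-2 and rdr6-15, or the double mutant ddm1-2 rdr6-15, with 2 biological replicates and so 2 arrays for each of the 4 genotypes. Each RNA came from pooled inflorescence tissue of flower stages 9 to 12 (n = 3 per the labels), from plants grown in long days. Plant age is not given in the sources used here. Values are log2 signals per probe set, and a difference of 1 is a 2-fold change in signal. In RNA from whole inflorescences, fewer cells with a transcript and less transcript per cell cannot be told apart.

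DDM1 is a chromatin remodeller that lets methyltransferases reach DNA packed in heterochromatin, and without it transposons lose DNA methylation and can be transcribed. RDR6, an RNA-dependent RNA polymerase, copies cleaved transcripts into double-stranded RNA, from which secondary small interfering RNAs are cut. In the Arabidopsis annotation many loci of the pseudogene class are remnants of transposable elements, and these lie densely around the centromeres, while others are decayed copies of ordinary genes. For most members the tables used here give no name beyond the locus. The exceptions were AT1G13070, listed as the cytochrome P450 gene CYP71B27, and AT1G15300, listed as CYTOSLEEPER.

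To judge which members gave signal, 27 probe sets against Bacillus RNAs, absent from plants, served as blanks. Over the 8 arrays 26 of them averaged 2.27 to 2.76 and the last averaged 3.56, and genotype means up to 3.56 are referred to as control level. This limit rests on the highest of the 27 blanks, so a mean below it is not shown to be without signal. A difference that starts or ends at control level is given as a lower limit. Across all probe sets the arrays correlated at 0.944 or more, except rdr6-15 replicate 1, which correlated at 0.852 to 0.879 with the others. Among the members this array was the highest of the 8 for 53 of 192 and the lowest for 10, by at most 0.62 above and 0.65 below all 7 others. Its spread enters the error of every comparison, so counts are given with and without it. For rdr6-15 in the comparisons without it a single array remains, assumed to vary like the other genotypes. DDM1 and RDR6 themselves were not analysed here, so the genotypes were not checked on these 2 genes. Of the flower markers 2 of 14 were matched, SPL and UFO, and both had means at control level in every genotype. Of 6 tapetum and anther markers 3 were matched. The tapetum receptor gene EMS1 had means of 4.06 to 4.71, and AMS was at control level in every genotype (2.72 to 2.97). A9 was at control level in Col-0 (2.96) and rdr6-15 (3.52), with 3.80 in ddm1-2 and 3.83 in the double mutant. The pollen gene LAT52 had a mean of 9.66 in Col-0. Of 10 pollen markers 4 were matched, with medians of 3.56 and 4.40 on the Col-0 arrays against 2.74 to 3.29 on the other 6. LAT52 had 7.48 and 6.95 in ddm1-2, 2.68 and 8.80 in rdr6-15 replicates 1 and 2, and 7.70 and 4.82 in the double mutant. On rdr6-15 replicate 1 it was thus at control level, and in replicate 2 near Col-0, and the difference of ddm1-2 from Col-0 did not pass (adjusted p = 0.776, limma). The part of these markers in the results for the members was not tested.

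Signal from the members was low in these inflorescences. In all 4 genotypes 147 of 192 had means at control level (76.6%, against 40.7% of all probe sets), 122 of them with own and 25 with shared probe sets. With the second highest blank, 2.76, as the limit, an alternative chosen after seeing the data, the count was 83 (43.2%, against 16.9% of all). There were 13 members above control level in Col-0 and 17 in rdr6-15, and 38 in ddm1-2 and 38 in the double mutant. The same counts over all 22746 probe sets were 12173, 12509, 12200 and 12269. Among the other 45 members the most common pattern was a mean above control level in both genotypes without DDM1 and at control level in both with it. It was found for 18 of the 45, which is 9.38% of the 192 members, against 0.853% of all probe sets. Means above control level in ddm1-2 alone were seen for 6 members (3.12%, beside 0.58% of all probe sets), 5 of them with shared probe sets. In every genotype they were seen for 9 members (4.69%, beside 49.3% of all).

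With RDR6 present, the loss of DDM1 raised 12 members and lowered none. The 12 are 6.25% of the members, beside 0.404% of all probe sets called higher in this comparison (limma, adjusted p under 0.05 over all 22746). Lower calls made up 0.171% of all probe sets. At an unadjusted p under 0.05 there were 36 members higher and 1 lower, beside 1120 and 956 of all 22746 probe sets. The median difference of the 192 members was -0.02, beside -0.01 for all probe sets, so the rise lay in a minority of loci. By probe set type, 4 of 148 own probe sets (2.7%) and 8 of 44 shared ones (18.2%) were called. Over all probe sets the shares were 0.161% of 21685 own and 5.37% of 1061 shared ones, so shared probe sets were both commoner among the members and called more often over all probe sets. In the averaged ddm1-2 effect described below, 0 of the 16 transcribed pseudogenes were called, beside 0.457% of all probe sets higher and 0.0528% lower. With only 16 members, of which 3 were above control level in any genotype, this lack of calls says little about the biotype. Their differences between ddm1-2 and Col-0 ran from -0.59 to 0.12.

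**Figure D1:**
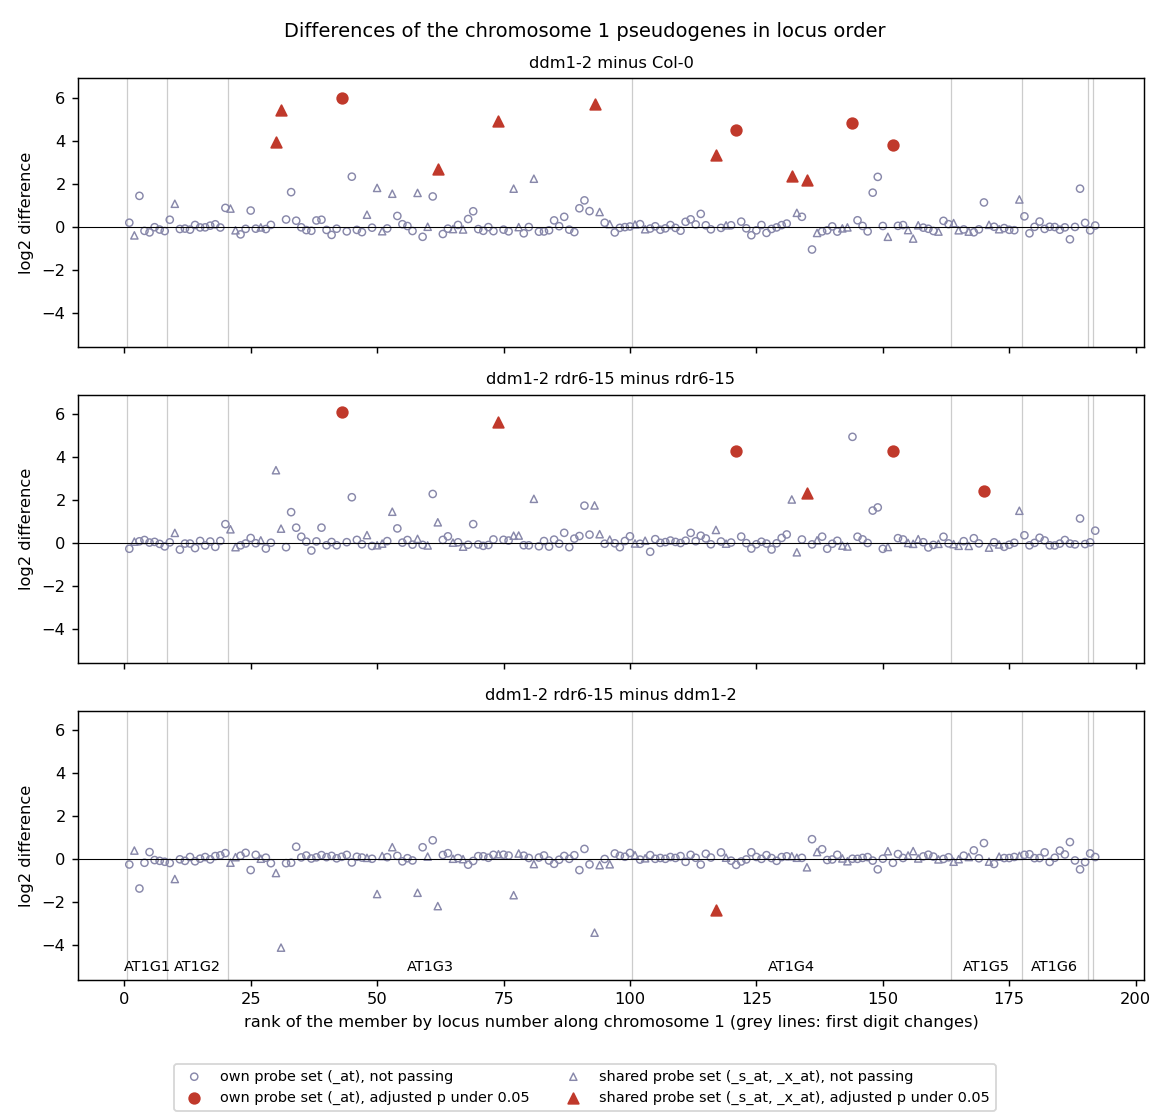
Difference in log2 signal (y axis) of each of the 192 members in 3 comparisons, with members ranked by locus number along chromosome 1 (x axis). Circles are own and triangles shared probe sets, and filled red symbols passed an adjusted p under 0.05. Red symbols run from rank 30 (AT1G32830) to rank 152 (AT1G44060) in the top panel and up to rank 170 (AT1G53810) in the middle one, and the 1 in the lowest panel is AT1G42360.

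The 4 members with own probe sets that rose are the clearest single loci of the set. AT1G34530 had 2.23 and 2.22 on the Col-0 arrays and 8.02 and 8.45 on the ddm1-2 arrays, a rise of at least 6.01 (SE 0.31, adjusted p = 0.000372), the largest among the members. AT1G43840 had 3.27 and 2.20 in Col-0 against 7.06 and 8.04 in ddm1-2, a rise of at least 4.81 (SE 0.61, adjusted p = 0.0272). In both the arrays of the 2 genotypes were far apart, and the Col-0 arrays of AT1G43840 differed more from each other than those of AT1G34530. AT1G42410 had 2.29 and 2.02 in Col-0 and 6.64 and 6.71 in ddm1-2, which is at least 4.52 higher (SE 0.38, adjusted p = 0.00455). For AT1G44060 the Col-0 arrays gave 3.99 and 2.91 and the ddm1-2 arrays 7.11 and 7.42, a rise of at least 3.82 (SE 0.47, adjusted p = 0.0234). Col-0 replicate 1 of AT1G44060 lay above control level and replicate 2 below it, and their mean was 3.45.

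Among shared probe sets the 2 highest differences were those of AT1G37160 and AT1G32840. AT1G37160 had 3.14 and 3.04 in Col-0 and 8.88 and 8.68 in ddm1-2, a rise of at least 5.69 (SE 0.37, adjusted p = 0.00124). AT1G32840 was above control level already in Col-0, with 4.10 and 4.07, and reached 9.38 and 9.62 in ddm1-2, a rise of 5.42 (SE 0.45, adjusted p = 0.00454). Its ddm1-2 mean of 9.50 was the highest of any member in any genotype. AT1G36190 went from 3.09 and 2.62 to 7.38 and 8.15, at least 4.91 higher (SE 0.40, adjusted p = 0.00391). AT1G32830, the next pseudogene to AT1G32840, went from 3.77 and 2.71 to 6.85 and 7.49, at least 3.93 higher (adjusted p = 0.0234). AT1G42360 rose by at least 3.34 (SE 0.21, adjusted p = 0.000996), from 2.80 and 2.65 to 5.99 and 6.13. In all 5 the arrays of the 2 genotypes did not overlap and lay at least 3 log2 units apart. The other 3 called shared probe sets had smaller rises, AT1G35650 with at least 2.69 (adjusted p = 0.0281), AT1G42705 with at least 2.37 (adjusted p = 0.0464) and AT1G43230 with at least 2.17 (adjusted p = 0.00164).

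**Figure D2:**
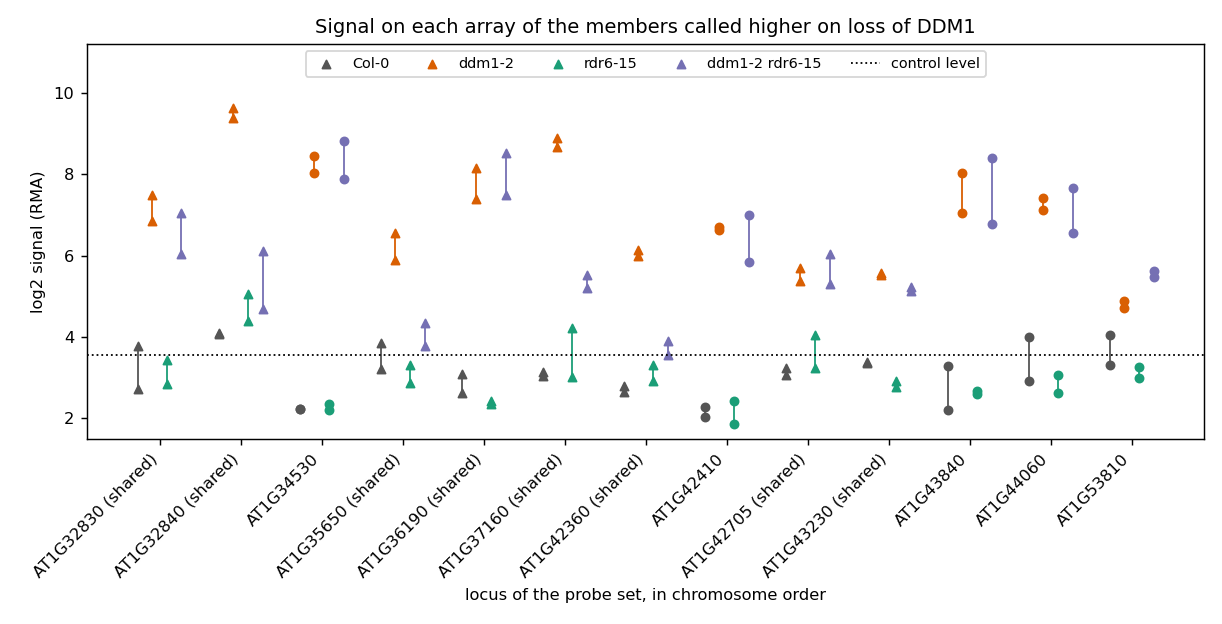
Log2 signal (y axis) on each array of the 13 members called higher in ddm1-2 against Col-0 or in the double against rdr6-15, in chromosome order (x axis). Points are single arrays, 2 for each genotype and joined by a line, triangles mark shared probe sets, and the dotted line is the control level of 3.56. The ddm1-2 points lie above the Col-0 points for every locus, while the double mutant reaches the ddm1-2 level in some and stays well below it in AT1G32840, AT1G35650, AT1G37160 and AT1G42360.

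Without rdr6-15 replicate 1 the same comparison called 28 members higher and none lower, 14.6% of the members beside 2.15% of all probe sets. The differences between ddm1-2 and Col-0 do not use that array, so their sizes were the same and only the estimate of spread changed. Leaving out rdr6-15 replicate 2 instead gave the same count of 28. The 16 added loci had differences from 0.73 in AT1G37110 to 2.33 in AT1G34590, and some, such as AT1G37110 with means of 2.59 in Col-0 and 3.32 in ddm1-2, were at control level in every genotype. Leaving out Col-0 replicate 1 or 2 left 4 members each, beside 31 and 32 of all 22746 probe sets, where all arrays called 92. Leaving out ddm1-2 replicate 1 or 2 left 6 or 4, beside 46 and 35 of all. AT1G34530, AT1G37160, AT1G42360 and AT1G43230 were called without any 1 of the 8 arrays.

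A plainer count, which needs no model of the spread, asked for a difference of at least 1 with no overlap of the arrays. By it 28 members (14.6%) were higher in ddm1-2 than in Col-0, beside 1.36% of all probe sets, 13 of them with own probe sets. There was 1 lower (0.521%), AT1G43240, while 2.21% of all probe sets were lower by this count.

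The loss of DDM1 where RDR6 was already lost was read from the double mutant against rdr6-15, which shares no array with the comparison above, although the spread was estimated from all 8. Here 6 members (3.12%) rose and none fell, beside 0.163% of all probe sets higher and 0% lower. At an unadjusted p under 0.05, 27 members were higher and 0 lower, beside 542 and 560 of all 22746 probe sets. AT1G34530 had 2.21 and 2.34 in rdr6-15 and 7.89 and 8.82 in the double, a rise of at least 6.08 (SE 0.31, adjusted p = 0.000408). AT1G36190 had 2.42 and 2.36 against 7.50 and 8.51, a rise of at least 5.62 (SE 0.40, adjusted p = 0.00232). In both loci replicate 2 of the double was about 1 log2 unit above replicate 1, and each was far above both rdr6-15 arrays. AT1G42410 rose by at least 4.28 (SE 0.38, adjusted p = 0.0097), from 2.42 and 1.87 to 5.84 and 7.0. AT1G44060 rose by at least 4.26 (SE 0.47, adjusted p = 0.031), from 3.06 and 2.62 to 6.55 and 7.66. AT1G43230, at 2.91 and 2.78 in rdr6-15, had 5.23 and 5.12 in the double, at least 2.33 higher (SE 0.15, adjusted p = 0.00146).

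AT1G53810 was the 1 member called here and not in ddm1-2 against Col-0. It had 3.26 and 3.00 in rdr6-15 and 5.63 and 5.48 in the double, a rise of at least 2.43 (SE 0.26, adjusted p = 0.031). In Col-0 it had 4.04 and 3.30 and in ddm1-2 4.71 and 4.89, a difference of 1.13 (adjusted p = 0.215). The test of the difference between these 2 effects did not pass (interaction 1.30, adjusted p = 0.748). AT1G43840, called in ddm1-2 against Col-0, fell just outside here, with 2.59 and 2.68 against 6.77 and 8.39 and a difference of at least 4.94 (adjusted p = 0.0528). Without rdr6-15 replicate 1 the comparison called 11 members higher, beside 0.281% of all probe sets, and AT1G43840 was among them. Without replicate 2 of rdr6-15 it called 17 members, but also 2569 of the 22746 probe sets, since replicate 1 then stood for the genotype alone. With the fit limited to the 4 arrays compared it called 0. A rise of at least 1 without overlap was seen for 20 members (10.4%), beside 1.31% of all probe sets, and such a decrease for 0, beside 1.06%.

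Over the 192 members the 2 differences made by the loss of DDM1, with and without RDR6, had a Pearson correlation of 0.842 and a Spearman correlation of 0.584. For own probe sets the Pearson value was 0.945 (n = 148) and for shared ones 0.73 (n = 44). These describe members measured on the same arrays, which are not independent, and carry no test. Of the 4 own probe sets called in ddm1-2, 3 were also called in the double against rdr6-15, and their differences there ran from at least 4.26 to at least 6.08. Of the 8 shared ones 2 were, and the 8 ran from 0.61 to at least 5.62.

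**Figure D3:**
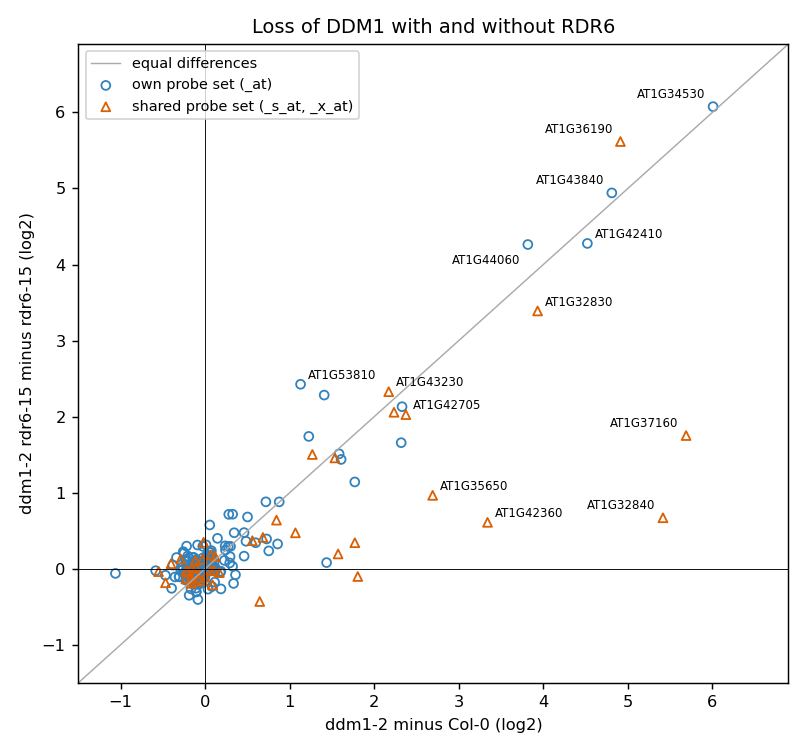
Log2 difference of ddm1-2 against Col-0 (x axis) and of the double mutant against rdr6-15 (y axis) for each of the 192 members. Blue circles are own and orange triangles shared probe sets, the grey line marks equal differences, and the members called in either comparison are named. AT1G34530, AT1G43840 and AT1G42410 lie close to the line, while AT1G32840, AT1G37160, AT1G42360 and AT1G35650 lie well to the right of it.

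Averaging the 2 differences uses all 8 arrays and called 18 members higher and none lower (9.38%, beside 0.457% of all probe sets higher and 0.0528% lower). There were 9 own and 9 shared probe sets (6.08% and 20.5%, beside 0.189% of all own and 5.94% of all shared ones), with averaged differences from 1.38 to 6.04 and a median of 2.24. Of these, 15 had Col-0 means at control level. All 12 called in ddm1-2 and AT1G53810 were among them, and 5 were called only here. Those 5 were AT1G34590 with 2.23 (adjusted p = 0.0198), AT1G43930 with 1.99 (adjusted p = 0.0388), AT1G43920 with 1.55 (adjusted p = 0.0334), AT1G33460 with 1.52 (adjusted p = 0.0188) and AT1G59265 with 1.38 (adjusted p = 0.0348). AT1G34590 had 3.88 and 3.37 in Col-0, 5.94 and 5.96 in ddm1-2, 4.04 and 3.32 in rdr6-15 and 5.36 and 6.26 in the double. The 4 arrays from plants without DDM1 lay above the other 4, and the same held for the other 4 loci. These 5 were picked by their difference on the same 8 arrays, so this order describes them and adds no support to the calls. Without rdr6-15 replicate 1 the count was 30, beside 1.02% of all probe sets, and without replicate 2 it was 29, beside 2371 of 22746. Leaving out any 1 array of Col-0 or ddm1-2, or replicate 2 of the double, lowered the count of members called. The count over all probe sets fell as well.

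The double mutant against ddm1-2 asks whether signal released by the loss of DDM1 depended on RDR6. AT1G42360 fell, from 5.99 and 6.13 in ddm1-2 to 3.89 and 3.56 in the double, by 2.33 (SE 0.21, adjusted p = 0.0381). With the replicate number as a block the call was lost (adjusted p = 0.102). It was 1 of 192 members called lower (0.521%, beside 0.0528% of all probe sets) and none was called higher (0.0044% of all). The calls here rest on few arrays, since AT1G42360 lost its call when any 1 of the Col-0, ddm1-2 or double arrays was left out (adjusted p from 0.105 to 0.644). There were 5 members called without either rdr6-15 array (0.171% of all probe sets lower without replicate 1). Those called without replicate 1, all 5 with shared probe sets, were AT1G32840, AT1G35590, AT1G35650, AT1G37160 and AT1G42360.

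Of the other 4, AT1G32840 and AT1G37160 differed by more than AT1G42360 and the remaining 2 by less. AT1G32840 had 9.38 and 9.62 in ddm1-2 and 6.11 and 4.68 in the double, a difference of -4.11 (SE 0.45, adjusted p = 0.0692). AT1G37160 had 8.88 and 8.68 against 5.53 and 5.21, a difference of -3.41 (SE 0.37, adjusted p = 0.0675). Both had signal above control level in the double, and the 2 double arrays of AT1G32840 were 1.43 apart. AT1G32840 was also above control level in rdr6-15, with 5.06 and 4.39. The double differed from rdr6-15 there by 0.67 (adjusted p = 0.813, limma). AT1G37160 had 4.21 and 3.02 in rdr6-15, and the same difference was 1.75 (adjusted p = 0.55). AT1G35650 differed by -2.18 (adjusted p = 0.308), from 5.90 and 6.56 to 4.33 and 3.78. AT1G35590 had 4.14 and 4.61 in ddm1-2 and 2.87 and 2.77 in the double, which is control level, and 2.82 and 2.79 in Col-0. Its difference was -1.55 (adjusted p = 0.388), a lower limit in size.

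By the count of at least 1 without overlap, 8 members (4.17%) were lower in the double than in ddm1-2, beside 0.484% of all probe sets. Shared probe sets were 7 of the 8. They included AT1G36470 and AT1G34967, with differences of -1.67 and -1.61 (neither passing). These 2, AT1G35590 and AT1G37110 were named after their values were seen. The 1 with an own probe set was AT1G12720, chosen after its values were seen. It had 3.16 and 2.52 in Col-0, 4.07 and 4.48 in ddm1-2, 2.72 and 2.95 in rdr6-15 and 2.86 and 2.97 in the double. Signal above control level was thus seen on the ddm1-2 arrays alone, with a difference of -1.36 between the double and ddm1-2 that did not pass (adjusted p = 0.624). The number of members higher by this count was 0, beside 0.0879% of all probe sets.

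The 4 own probe sets called in ddm1-2 were also high in the double, where the arrays gave 7.89 and 8.82 for AT1G34530, 6.77 and 8.39 for AT1G43840, 5.84 and 7.0 for AT1G42410 and 6.55 and 7.66 for AT1G44060. The differences from ddm1-2 of these 4 lay between -0.26 and 0.12, with a median of -0.07, and in each the 2 ddm1-2 arrays lay between the 2 double arrays. For the 8 shared probe sets called in ddm1-2 the same difference ran from -4.11 to 0.24, with a median of -1.41. AT1G36190, with a shared probe set, was at the upper end with 0.24. Own and shared probe sets alike were chosen here for high signal on the ddm1-2 arrays. The difference uses those arrays again, so this choice can push it below 0. Whether own and shared probe sets differ in this was not tested.

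Whether the effect of DDM1 loss differed with RDR6 was tested by the interaction, the difference in the double against rdr6-15 minus that in ddm1-2 against Col-0. With all arrays 0 members passed in limma, beside 0% of all probe sets higher and 0.00879% lower. An unadjusted p under 0.05 was found for 8 members, 7 of them below 0. Over all 22746 probe sets it was found for 1430, 844 of them below 0. The 3 with the smallest p were AT1G42360 with -2.73 (adjusted p = 0.129), AT1G37160 with -3.94 and AT1G32840 with -4.75 (both adjusted p = 0.189). Without rdr6-15 replicate 1 these 3 were called, with -2.53 (adjusted p = 0.0222), -3.34 (adjusted p = 0.00536) and -4.42 (adjusted p = 0.0419), beside 0.101% of all probe sets called lower. In rdr6-15 replicate 1 AT1G37160 had 4.21 and AT1G32840 5.06, above the 3.02 and 4.39 of replicate 2. Without replicate 2 the interaction called 7 members lower, beside 1930 of 22746 probe sets.

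The loss of RDR6 where DDM1 was present changed no member by limma, beside 0.0044% of all probe sets called in each direction. At an unadjusted p under 0.05 there were 3 members, beside 2270 of all 22746 probe sets. Without rdr6-15 replicate 1 the count was again 0, beside 0.0264% of all probe sets higher and 0.101% lower. Without replicate 2 it was 6 higher and 1 lower, beside 2605 and 2809 of all. The 3 smallest p-values with all arrays were those of AT1G43230 with -0.53 (adjusted p = 0.388), AT1G27285 with 0.44 (adjusted p = 0.437) and AT1G43200 with 1.15 (adjusted p = 0.446). AT1G43200 had 2.80 and 2.92 in Col-0 and 4.54 and 3.48 in rdr6-15, and also 3.97 and 3.19 in the double, with replicate 1 the higher in both. By at least 1 without overlap AT1G43200 was the 1 member higher in rdr6-15 (0.521%, beside 1.69% of all probe sets) and 0 were lower (beside 3.31%). AT1G27285 was at control level in every genotype. Of the 192 members 184 differed by less than 0.5 between rdr6-15 and Col-0, beside 18222 of all 22746 probe sets. With 147 members at control level everywhere, changes in their transcripts may be understated.

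Against Col-0 the double mutant had 6 members higher and none lower (3.12%, beside 0.211% higher and 0.101% lower of all probe sets). AT1G34530 rose by at least 6.13 (adjusted p = 0.00038), AT1G36190 by at least 5.15 (adjusted p = 0.00429), AT1G43840 by at least 4.84 (adjusted p = 0.0382), AT1G42410 by at least 4.27 (adjusted p = 0.00986), AT1G44060 by at least 3.66 (adjusted p = 0.0407) and AT1G43230 by at least 1.80 (adjusted p = 0.00668). This comparison shares the Col-0 arrays with that of ddm1-2. AT1G37160, AT1G32840 and AT1G42360, with at least 5.69, 5.42 and at least 3.34 in ddm1-2, had at least 2.28, 1.31 and at least 1.01 here, none of which passed. Without rdr6-15 replicate 1 the count was 20, beside 1.03% of all probe sets higher, and 20 again without replicate 2. Leaving out any 1 array of Col-0, of ddm1-2 or of the double lowered the count of members called, and the count over all probe sets fell as well. By at least 1 without overlap 23 members (12%) were higher, beside 0.796% of all probe sets, and 0 were lower, beside 2.41%.

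Along the chromosome the members were unevenly spread, and most risers lay where most members did. Loci numbered AT1G3 and AT1G4, which include those on both sides of the centromere, held 80 and 63 of the 192 members. They held 8 each of the 18 called in the averaged effect, and the remaining 2, AT1G53810 and AT1G59265, lay among the 14 members numbered AT1G5. None was called among the 8 members numbered AT1G1, the 12 of AT1G2, the 13 of AT1G6 or the single members of AT1G7 and AT1G8. These groups are small, and whether the share of risers differs along the chromosome was not tested. AT1G1, AT1G2 and AT1G6 each held 1 member with a difference of at least 1 in ddm1-2 against Col-0. The 18 ran from AT1G32830 to AT1G59265, a stretch that holds 148 of the 192 members, so most members between them did not rise. Outside this stretch the largest difference in ddm1-2 was that of AT1G67240, chosen after its values were seen, with 2.44 and 2.12 in Col-0 and 3.98 and 4.11 in ddm1-2. Its difference of at least 1.77 did not pass with all arrays (adjusted p = 0.171).

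Most members next to a called own probe set were at control level. The pseudogenes on either side of AT1G42410 in locus order, AT1G42400 and AT1G42420, had means of 2.25 and 2.58 in ddm1-2, at control level, against 6.68 for AT1G42410. Next to AT1G34530, AT1G34330 and AT1G34545 had 2.25 and 2.41 in ddm1-2. Beside AT1G43840, AT1G43745 and AT1G43870 had 2.27 and 2.57, and beside AT1G53810, AT1G52840 and AT1G54430 had 2.36 and 2.38. AT1G44060 stood between AT1G43995, with means of 4.91 in Col-0 and 4.44 in ddm1-2, and AT1G44070, with 3.03 and 3.08. The flanks of AT1G33460 (AT1G33000 and AT1G33580) and of AT1G34590 (AT1G34545 and AT1G34620) were at control level in all genotypes.

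There were 2 places where adjacent members were both called in the averaged effect. Next to the called AT1G35650, AT1G35647 (own probe set, named after its values were seen) did not pass (averaged difference 1.85, adjusted p = 0.52, limma). It had 2.85 and 2.21 in Col-0, 3.46 and 4.41 in ddm1-2, 2.69 and 2.40 in rdr6-15 and 3.23 and 6.42 in the double. AT1G32830 and AT1G32840 follow each other in the reference, and both have shared probe sets. In ddm1-2 AT1G32830 had a mean of 7.17 and in the double 6.54, a difference of -0.64. For AT1G32840 these means were 9.50 and 5.40, the difference of -4.11 given above. AT1G43920 and AT1G43930, with own probe sets, had 2.93 and 2.41 in Col-0, 4.52 and 4.73 in ddm1-2 and 4.46 and 4.26 in the double. AT1G43886 and AT1G43940, on the outer sides of this pair, were at control level in every genotype.

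The nearest measured gene on each side of the 18 risers, pseudogene or protein coding, was also read. These were 36 different genes, of which 19 were protein coding, each read by its first probe set. Of the 36, 2 were called higher in ddm1-2, beside 0.404% of all probe sets. They were AT1G32830 and AT1G32840, which lie beside each other and are themselves among the 18 risers. Of the 19 protein-coding ones 0 were called, which at that share says little for so few genes. The 19 had a median difference of -0.05. Among these was SEU, which encodes a transcriptional co-regulator of floral homeotic genes and follows AT1G43840 in this order, with means of 5.06 in Col-0 and 5.30 in ddm1-2. AT1G43240 follows AT1G43230, and did not rise with it.

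A few members gave signal in wild type. The 8 highest in Col-0 were AT1G43240 (mean 6.85), AT1G64560 (5.96), AT1G80020 (5.62), AT1G43995 (4.91), AT1G13070 (4.26), AT1G32840 (4.09), AT1G35612 (3.97) and AT1G41750 (3.95). Among these AT1G32840 was the 1 called in any comparison by limma with all arrays. These are levels of different probe sets, whose order need not be that of the transcripts. AT1G43240 had 6.94 and 6.75 in Col-0, 6.66 and 4.91 in ddm1-2, 7.43 and 6.14 in rdr6-15 and 7.11 and 6.34 in the double. AT1G64560, a transcribed pseudogene, had 6.28 and 5.65, then 6.55 and 4.20, 7.31 and 5.11, and 7.0 and 5.36 in the same order. In both loci replicate 1 was above replicate 2 in every genotype, and the gap between the 2 ddm1-2 arrays was wider than any difference between genotype means. AT1G80020 had means of 5.62, 5.68, 5.21 and 5.79, with replicate 2 the higher in every genotype. AT1G13070 had 4.26, 4.06, 3.76 and 3.91, and rdr6-15 replicate 1 was its lowest array at 3.41.

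**Figure D4:**
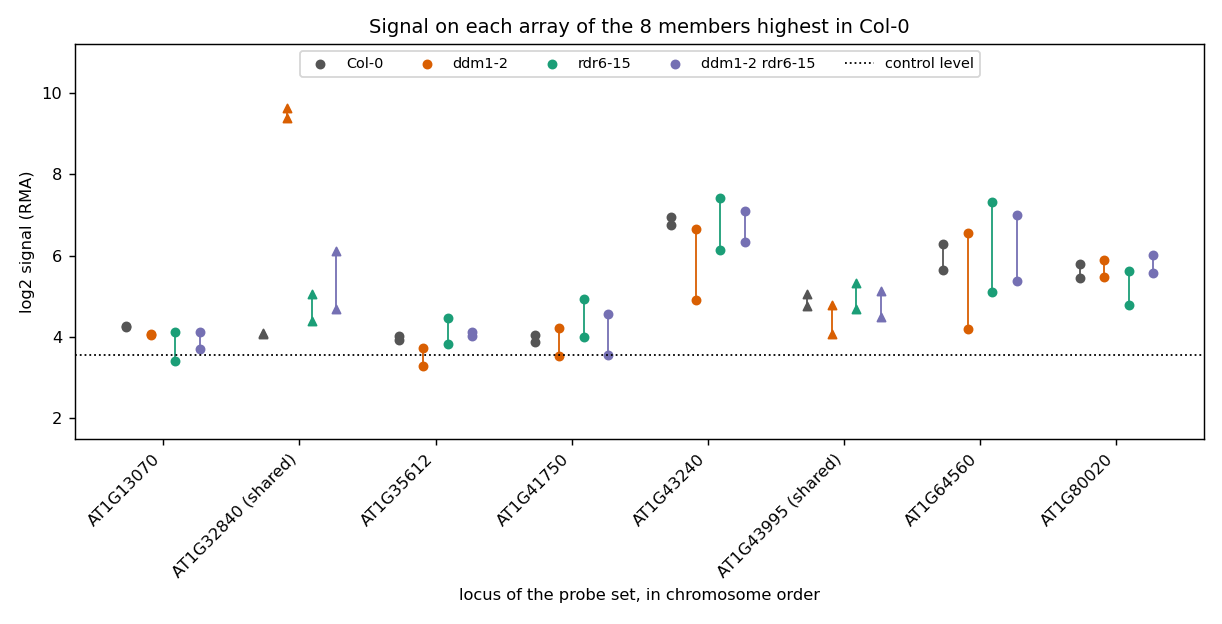
Log2 signal (y axis) on each array of the 8 members with the highest means in Col-0, in chromosome order (x axis). Points are single arrays, 2 for each genotype and joined by a line, triangles mark shared probe sets, and the dotted line is the control level of 3.56. Apart from AT1G32840, the genotypes overlap or lie close together, and AT1G43240 and AT1G64560 show the widest gaps between the replicates of a genotype.

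Set beside the annotated pseudogenes of the other chromosomes, with counts given as a description, own probe sets were called higher in the averaged effect for 9 of 148 on chromosome 1 (6.08%), 7 of 239 on chromosome 2 (2.93%), 4 of 169 on chromosome 3 (2.37%), 5 of 138 on chromosome 4 (3.62%) and 2 of 104 on chromosome 5 (1.92%). For shared probe sets the figures were 9 of 44 on chromosome 1 (20.5%), 24 of 59 on chromosome 2 (40.7%), 14 of 38 on chromosome 3 (36.8%), 7 of 36 on chromosome 4 (19.4%) and 2 of 13 on chromosome 5 (15.4%). In ddm1-2 against Col-0 the shares of own probe sets were 2.7%, 1.67%, 2.96%, 2.9% and 0.962% on chromosomes 1 to 5, so chromosome 1 did not lead there. Whether these shares differ was not tested, and related loci on several chromosomes may be read by the same probes.

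The genes of the silencing machinery could be read only in part. Of 40 listed loci 4 were matched, with 6 probe sets, and 0 of the 6 were called in any of the 7 comparisons by limma. Histone H1 genes, which encode linker histones, had the highest signal, with means of 7.80 in Col-0 and 7.82 in ddm1-2 for H1.1 (AT1G06760) and 7.73 and 7.76 for H1.2 (AT2G30620). AGO7, the Argonaute of the tasiRNA pathway, had 3.41 in Col-0 and 3.99 in ddm1-2 (difference 0.59, adjusted p = 0.522). DME, a DNA demethylase, had 3 probe sets with means of 2.64 to 4.29 over the genotypes. The differences of the 6 between ddm1-2 and Col-0 ran from -0.25 to 0.59.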

How the data were processed

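For each ATH1 array (6 ug total RNA) the authors deposited log2 signals, made with RMA per the submitters' processing notes. The sources used here give neither its version nor its settings. No scaling was added. Of 22810 probe sets, 64 controls were left out. Genes came from the platform annotation (13513 probe sets with 1 gene, 503 with several, none listed for 8730), and 13436 were matched to a locus of the TAIR10.1 table, used for names and neighbours only. No sequence of probes or loci was used here.

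The linear model, run with limma 3.58.1 (R 4.3.3), had 1 mean for each genotype and used the 8 arrays together (4 residual degrees of freedom, 2.82 prior), two-sided, with Benjamini-Hochberg adjustment over 22746 probe sets. Since the labels name only biological replicates, p-values measure the spread between these arrays, whose number limits the precision. The fit was tested on simulated data. Alternatives were a replicate block, other variance settings and filters, fits limited to the genotypes compared, shared probe sets left out and each array left out.

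Members, lists and tests were chosen with earlier results of these data known. Named were all called members (at most 30 per comparison, by size), the 3 with the smallest p where fewer than 3 were called, the 8 highest in Col-0, the 5 own probe sets with the largest ddm1-2 difference and the members next to called own probe sets. Markers listed for leaf and root were not matched.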

Additional observations from a re-analysis of the deposited data

How the results depend on the processing

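No difference of a called member changed sign under the alternatives run. Counts of members called higher moved as follows. With the replicate block there were 7 in ddm1-2 against Col-0 (12 without it) and 3 in the double against rdr6-15 (6), with 0 lower in the double against ddm1-2 (1). Over all 22746 probe sets the counts with the block were 73, 29 and 1, against 92, 37 and 12 without it. Same-numbered arrays did not all deviate together, since the correlations of their deviations between genotypes ran from -0.06 to 0.42, so the numbers were not taken as pairs. With only the genotypes compared in the fit, the counts were 32 in ddm1-2 against Col-0 (599 of all 22746 probe sets), 0 in the double against rdr6-15 (17 of all), 18 in the double against Col-0 (189 of all) and, for lower, 3 in the double against ddm1-2 (27 of all). With shared probe sets left out they were 3, 2, 2 and 0, beside 25, 11, 13 and 1 of all 21685, and 7 in the averaged effect (36 of all). A trended and robust variance gave 3 lower in the double against ddm1-2, beside 23 of all. Leaving out 1 array gave 4 to 28 higher in ddm1-2 against Col-0, 3 to 17 in the double against rdr6-15, 1 to 20 in the double against Col-0, 0 to 6 in rdr6-15 against Col-0 and 8 to 30 in the averaged effect. For lower it gave 0 to 5 in the double against ddm1-2, 0 to 1 in rdr6-15 against Col-0, 0 to 7 in the interaction and 0 to 1 in the averaged effect. Where a genotype was left with 1 array, that array is assumed to vary like the other genotypes. Why the counts moved was not tested. Control level is set by the highest of 27 blanks, and with the second highest 83 rather than 147 members lay at it throughout.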

Other observations

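In 44 of the 192 members replicate 1 was above replicate 2 in all 4 genotypes, and in 3 members the reverse held. Over all 22746 probe sets the counts were 2942 and 2593, so the members lean to replicate 1 (22.9%, beside 12.9% of all). Most members are at control level, where the order of arrays says little about transcripts. Among the 9 members above control level in every genotype, 3 were higher in replicate 1 throughout, and 1 was higher in replicate 2 throughout. Over the 11211 such probe sets the lean was the other way, with 428 higher in replicate 1 throughout (3.82%) and 2107 in replicate 2. The 3 members higher in replicate 1 throughout were AT1G43240, AT1G43995 and AT1G64560, chosen after their values were seen. The gap was 0.63, 2.35, 2.20 and 1.64 in AT1G64560 for Col-0, ddm1-2, rdr6-15 and the double, and 0.19, 1.76, 1.29 and 0.77 in AT1G43240. What the replicate number stands for is not given in the labels used here.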
